A study of Mus musculus with 36 samples.

Results

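Heparan sulfate is a sugar chain carried by cell-surface and matrix proteins, and 37 genes that build, trim or carry it were followed here in cultured mouse nephron progenitor cells (NPCs), the mesenchymal cells of the embryonic kidney that either self-renew or form nephrons. The 37 genes were listed by symbol for their place in the pathway, with no cut on a measured value but with earlier results of these data known, and they stand among 30125 genes listed in at least 1 of 3 tables of normalized counts. Of the 37, 36 were listed in at least 1 table and 34 in all 3. Hs6st3, a 6-O-sulfotransferase, was in none of the tables, Hs3st2 was listed only in the wild-type table and Ndst4 only in the Tcf/Lef table. Genes were tested where their mean was at least 10 normalized counts over a table, which 32 of the members reached in the wild-type table, 32 in the Ctnnb1 table and 31 in the Tcf/Lef table.

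The study used RNA-seq to ask how NPCs respond to low and high canonical Wnt signal, and which part of the response needs β-catenin or its Tcf/Lef partners. NPCs were enriched from kidneys of mouse embryos, Swiss Webster or C57Bl/6 with no strain given for each library, by depleting cells that carry CD105, CD140, Ter119 or CD326, and were grown in NPEM, a defined NPC medium. Canonical Wnt signal was set with CHIR99021 (CHIR), an inhibitor of the kinase GSK3 that keeps β-catenin from being degraded, for 24 h at 0 μM (no CHIR), 1.25 μM (low CHIR) or 5 μM (high CHIR). The 9 wild-type libraries held 3 replicates of each dose. The 16 libraries of the Ctnnb1 table, 2 replicates in each of 8 groups, were cells with the conditional B-catenin_c_c genotype given Cre (Cre-positive) or none (Cre-negative), and Cas9-eGFP cells given guides against Ctnnb1 or against GFP, each in low and high CHIR after a 24 h knockout period. The 11 libraries of the Tcf/Lef table were Cas9-eGFP cells given guides against Tcf7l1, Tcf7l2, Tcf7 and Lef1 together (quadruple knockout, QKO; 2 replicates in low and 3 in high CHIR) or against GFP (3 replicates per dose), after a 48 h knockout period. Cas9-eGFP was carried by these controls as well, transfected cells were sorted by an mCherry signal, and a guide or Cre acts on a mixed population and not on a clone. The sex of the embryos was not recorded, and Gpc3, Gpc4 and Hs6st2 are on the X chromosome.

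Chains of heparan sulfate start on a short sugar linker that Xylt1, Xylt2, B4galt7 and B3gat3 help to build on a core protein. Ext1 and Ext2 extend the chain, and the Ndst, Glce, Hs2st1, Hs6st and Hs3st enzymes then change its sugars and add sulfate at set positions. Sulf1 and Sulf2 are extracellular enzymes that remove 6-O-sulfate from finished chains, and Hpse cuts the chains. Glypicans (Gpc), held in the membrane by a lipid anchor, and syndecans (Sdc), which cross it, are the main cell-surface core proteins. The pattern of sulfate sets how well chains hold ligands such as Wnt, FGF and GDNF proteins, and mice that lack the 2-O-sulfotransferase gene Hs2st1 form no kidneys.

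Depth was between 13089780 and 76071568 reads on genes per library. Ctnnb1 itself was at 1040 to 1652 normalized counts with Ctnnb1 guides against 2521 to 3397 with GFP guides. Libraries labelled Cre-positive in high CHIR held 2254 and 2583 against 2207 and 2423 in the Cre-negative ones, and since the count covers exons outside the deleted part it is no check of the deletion. With QKO guides in high CHIR, Tcf7 was at 110 to 180 against 268 to 535 in controls and Lef1 at 255 to 513 against 1144 to 2743, while Tcf7l2 overlapped its controls (999 to 1616 against 1263 to 2233) and Tcf7l1 was not lower (539 to 736 against 486 to 612). In low CHIR Tcf7 was at 66.2 and 97.7 against 141 to 220 and Tcf7l1 at 827 and 1286 against 1736 to 2225. Lef1 (21.5 and 87.1 against 19.9 to 120) and Tcf7l2 (1575 and 1695 against 1622 to 1949) overlapped their controls there. A guide can leave an edited RNA that is still counted. In the wild-type table the third high CHIR library stood apart. Its correlation over genes with the others was 0.921 and 0.910, against 0.973 between those. The differentiation gene Lhx1 was at 104 normalized counts there against 5949 and 6706, but Wnt4, another such gene, was higher at 11108 against 1315 and 1473. The progenitor genes Six2 (65.4 against 60.5 and 79.6) and Cited1 (102 against 77.3 and 103) were as low as in the others. Members called in high CHIR in wild-type cells are therefore given with and without the third library.

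Per kilobase of exon, which allows levels of different genes to be compared, Gpc3 and Sdc4 were far above the other members in every table. The median over libraries was 7383 normalized counts per kb for Gpc3 and 4415 for Sdc4 in the wild-type table, 6722 and 5258.5 in the Ctnnb1 table, and 5715 and 5301 in the Tcf/Lef table. The third member in order was Sdc1 at 538.6 in the wild-type table, Sdc2 at 608.6 in the Ctnnb1 table and Sdc1 at 330.2 in the Tcf/Lef table. At the other end, Extl1, Ndst3, Ndst4, Hs3st2 and Hs3st5 lay below the filter in at least 1 table, and Hs3st5, a 3-O-sulfotransferase known from brain, was at no more than 29.5 normalized counts in any library.

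In wild-type cells, high CHIR lowered both sulfatases, the chain polymerase Ext1 and the core proteins Gpc3, Gpc6 and Sdc4, and raised Gpc4 and Hs6st1, though the call of Sulf1 was not made by DESeq2 or edgeR. Of the 32 members tested, 10 passed an adjusted p under 0.05 (limma, Benjamini-Hochberg over all genes) and a log2 change of at least 0.5 between high and low CHIR, 2 of them higher and 8 lower. Over all 17411 genes tested, 10.4% passed, 5.33% higher and 5.05% lower. The median log2 change of the members was 0.00 and that of all genes 0.01. Without the third high CHIR library 13 members passed, and 12.7% of all genes. RNA from a bulk culture cannot tell fewer cells of one kind from less RNA per cell.

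**Figure D1:**
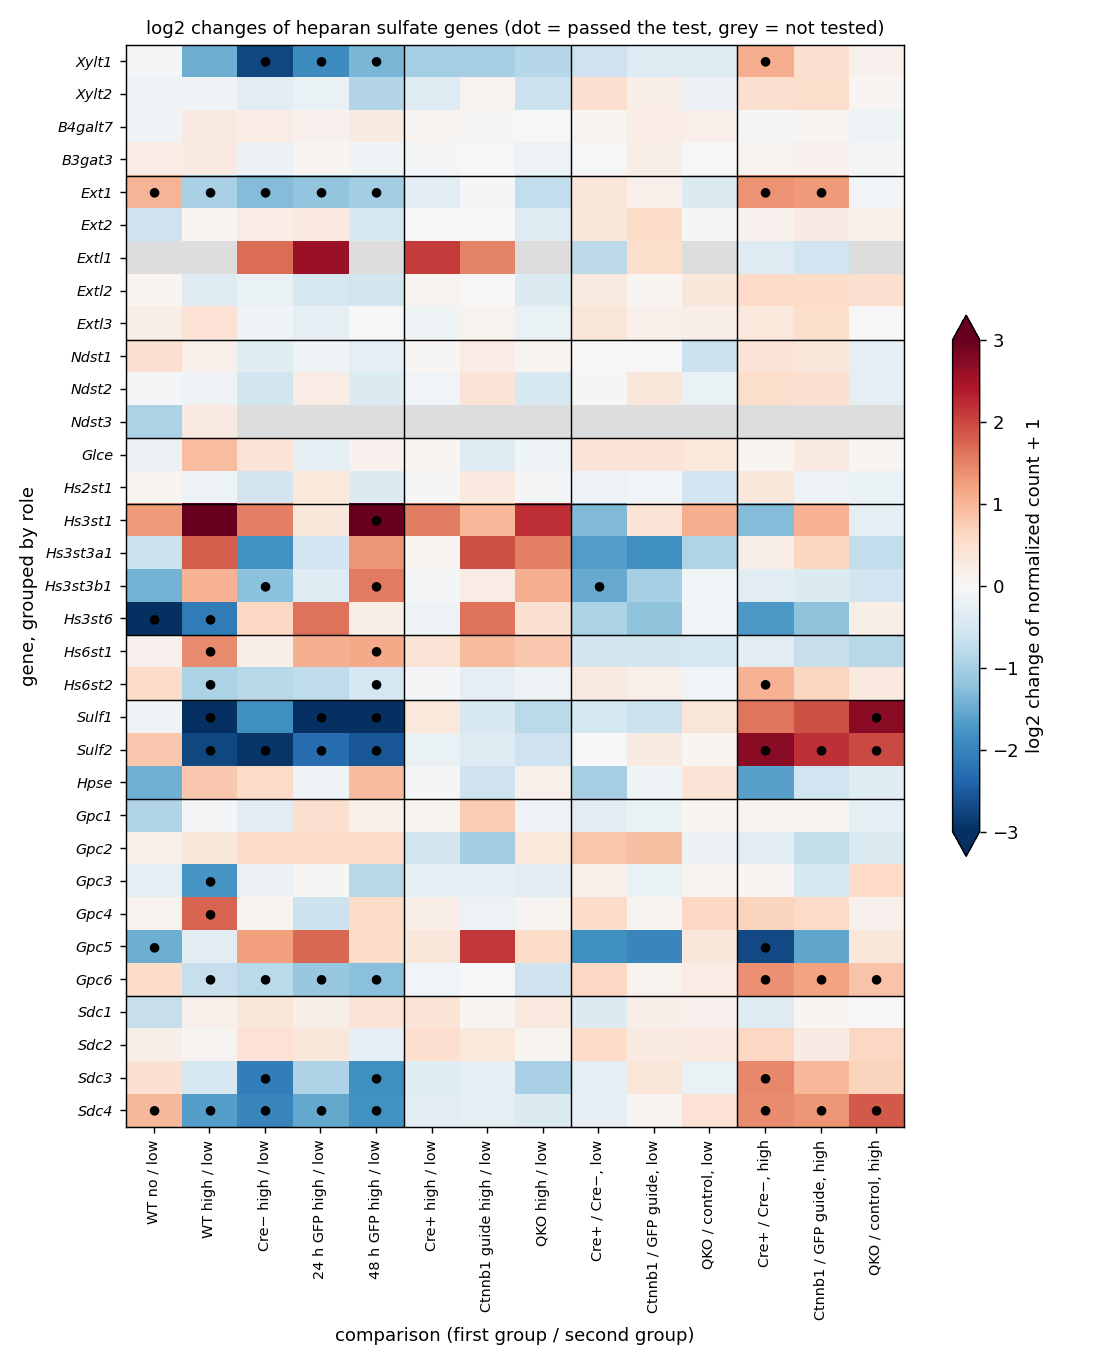
Heat map of log2 changes of the normalized count + 1 for each tested member (rows, grouped by role) in 14 comparisons (columns); red is higher and blue lower in the first group named, a dot marks a change that passed the test and grey a gene that was not tested. Sulf2, Sdc4 and Gpc6 are blue with a dot in all 4 high against low CHIR comparisons of cells with intact genes, and red with a dot in all 3 knockout comparisons in high CHIR. How many of all genes were called in all of these was not counted.

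Sulf2 showed the clearest change among the sulfatases. Its normalized counts were 1682, 1494 and 1575 in low CHIR and 435, 286 and 107 in high CHIR, a 6.65-fold fall (log2 change -2.73 ± 0.40 SE, adjusted p = 0.0019), and with no CHIR they were 2987, 2335 and 3000. All high CHIR libraries thus lay below all low CHIR libraries, and the third was the lowest. Without that library the log2 change was -2.16 (adjusted p = 9.84e-05). The gene lies on chromosome 2 (GRCm38, chr2:166073089-166155663, minus strand) and overlaps Ncoa3 on the other strand, from which a library kit that does not mark strand cannot separate its reads where they share exons.

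Sulf1, the other 6-O-endosulfatase, behaved differently between libraries of high CHIR. It was at 464, 370 and 666 normalized counts in low CHIR and at 10.1, 6.98 and 223 in high CHIR. The third high CHIR library was far above the other two and still lay below every low CHIR library. The log2 change was -4.17 ± 0.99 (SE, adjusted p = 0.0239), and -5.69 ± 0.31 without that library (adjusted p = 5.81e-06). The call was lost on leaving out any other of the 6 libraries (log2 changes of -4.36 to -3.29, adjusted p of 0.061 to 0.0967), with DESeq2 (-2.64, adjusted p = 0.108), with edgeR (-2.61, adjusted p = 0.113) and with a fit of only the compared groups (-4.17, adjusted p = 0.0742). Sulf1 spans chr1:12692277-12861192 on the plus strand.

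Sdc4, the most abundant syndecan, fell with each step of CHIR. Its normalized counts were 24642, 20231 and 24879 with no CHIR, 11244, 10806 and 13388 in low CHIR, and 4585, 4457 and 2560 in high CHIR, with no overlap between doses. The log2 change was -1.65 ± 0.21 (SE, adjusted p = 8.96e-04) from low to high CHIR, and -1.38 without the third high library. From low to no CHIR it was 0.98 ± 0.21 (adjusted p = 0.0326), a call lost on leaving out any 1 of the 6 libraries (0.92 to 1.07, adjusted p of 0.0602 to 0.147). Ext1, whose product extends the chain together with that of Ext2, had the same order, at 2648, 2406 and 2671, then 1258, 1103 and 1454, then 565, 592 and 798. Its log2 change was -0.97 ± 0.16 (adjusted p = 0.00428) from low to high CHIR (-1.13 without the third high library) and 1.03 ± 0.16 (adjusted p = 0.0104) from low to no CHIR, the latter not called without low CHIR replicate 1 or 2 or no CHIR replicate 3 (0.93 to 1.02). Ext2 did not pass the test at 1307, 1170 and 1255 in low CHIR and 1272, 1131 and 1549 in high CHIR.

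Among the other core proteins Gpc6, a glypican whose gene lies near Gpc5 on chromosome 14, fell from 2260, 1908 and 2454 to 1574, 1470 and 1064 (log2 change -0.70 ± 0.18, adjusted p = 0.0307), with no overlap. This was not called without low CHIR replicate 1 or 3 (-0.68 and -0.62), and was -0.53 without the third high library (adjusted p = 0.0488). Gpc3, the glypican mutated in Simpson-Golabi-Behmel overgrowth syndrome, fell from 23304, 25910 and 22638 to 8289, 7790 and 5258 (-1.78 ± 0.19, adjusted p = 2.63e-04). Its X-linked neighbour Gpc4 went the other way, from 762, 648 and 709 to 2168, 2117 and 2837 (1.74 ± 0.23, adjusted p = 0.00106). The 2 genes lie head to tail on the minus strand, Gpc4 at X:52053021-52165252 and Gpc3 at X:52272426-52613950, and both calls held under each alternative analysis run, at -1.57 for Gpc3 and 1.60 for Gpc4 without the third high library.

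Taken as shares of all glypican and syndecan transcripts per kb, Sdc4 held 50.4% on average with no CHIR, 30.5% in low CHIR and 23.4% in high CHIR. Gpc3 held 40.5%, 58.6% and 41%. Gpc4 held 1.6%, 1.76% and 14.4%, and Sdc1, an epithelial syndecan, 1.89%, 3.59% and 9.76%. The ranges over libraries did not overlap between low and high CHIR for any of these 4 genes. A share also moves with the total, which fell from low to high CHIR. Summed glypicans went from 9173 to 10290 normalized counts per kb to 3270 to 4283, and syndecans from 5255 to 6209 to 2139 to 2813. Sdc1 itself averaged 547 per kb in low and 608 in high CHIR and was not called between them.

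**Figure D2:**
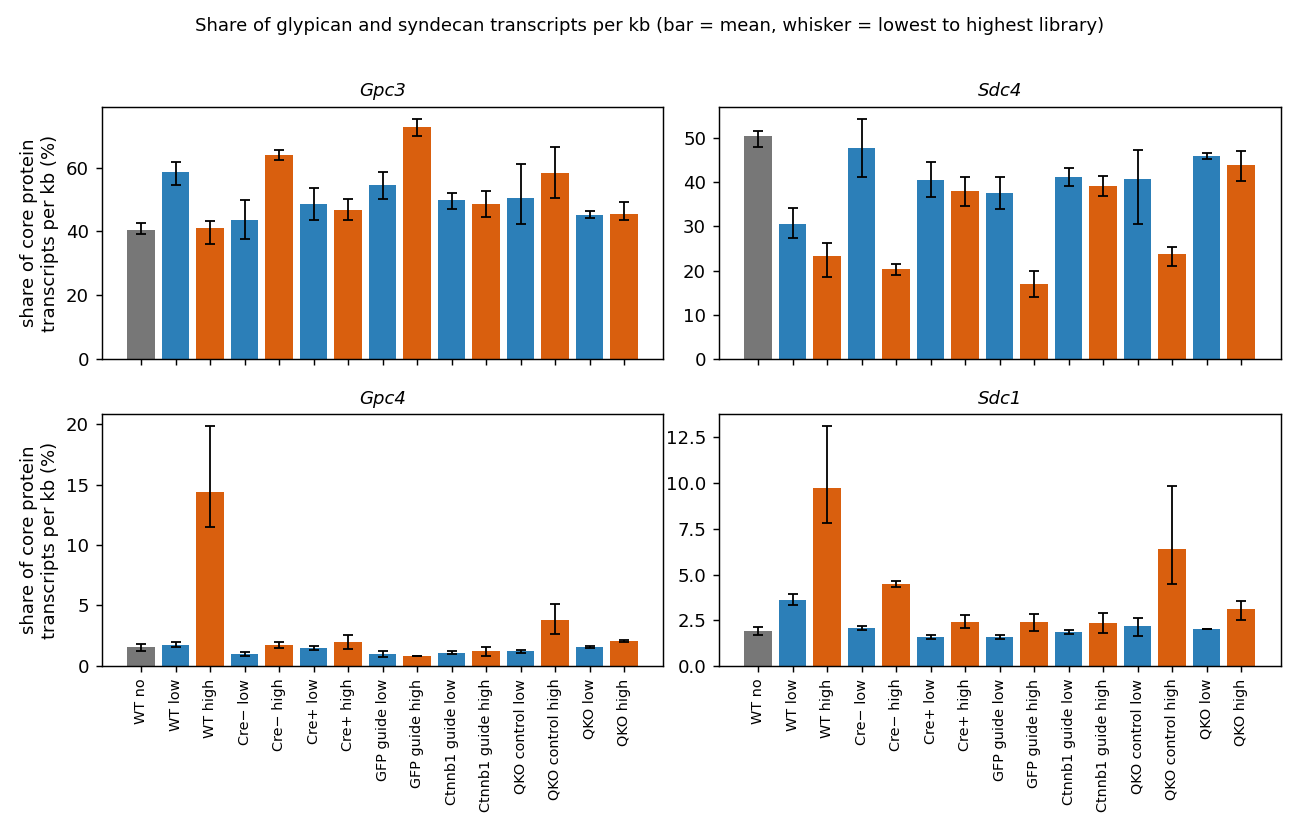
Bars give the mean share (percent) of glypican and syndecan transcripts per kb of exon that each of Gpc3, Sdc4, Gpc4 and Sdc1 held in the 15 groups, and whiskers run from the lowest to the highest library of the group; grey, blue and orange stand for no, low and high CHIR. Gpc4 stands at 14.4% in wild-type high CHIR and at a mean of at most 3.8% in each other group.

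The 6-O-sulfotransferases moved in opposite directions. Hs6st2, the more abundant 6-O-sulfotransferase per kb, fell from 2026, 2218 and 2897 normalized counts in low CHIR to 1336, 1667 and 807 in high CHIR (log2 change -0.95 ± 0.24, adjusted p = 0.0309). Hs6st1 rose from 284, 236 and 174 to 779, 821 and 343 (1.41 ± 0.33, adjusted p = 0.0228). In both genes the low and high CHIR libraries did not overlap. The Hs6st2 call was lost without high CHIR replicate 1 or any low CHIR replicate (-1.06 to -0.80), and the Hs6st1 call without high CHIR replicate 1 or 2 or low CHIR replicate 2 or 3 (1.19 to 1.44). Without the third high library the changes were -0.66 for Hs6st2 (adjusted p = 0.0301) and 1.81 for Hs6st1 (adjusted p = 9.63e-04).

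Several 3-O-sulfotransferases, which add the rarest sulfate group of the chain, differed widely between the high CHIR libraries. Hs3st3b1 was at 402, 580 and 544 normalized counts in low CHIR and at 2120, 3125 and 169 in high CHIR, so the third library lay below the low CHIR range while the others lay above it. The change did not pass the test with all libraries (1.05), and passed without the third (2.35 ± 0.29, adjusted p = 6.11e-04). Hs3st3a1, a gene on the same chromosome with a nearly identical sulfotransferase domain, so that reads may be split between them uncertainly, was at 13.1 to 28.7 in low CHIR and at 105, 214 and 11.2 in high CHIR. It likewise passed without the third library (3.02 ± 0.51, adjusted p = 0.00368), and with DESeq2 on all libraries (2.56, adjusted p = 0.0124). Hs3st1 ran the other way, at 136, 34.9 and 801 in high CHIR against 10.8 to 29.4 in low CHIR, with no overlap. With limma it did not pass with (3.08, adjusted p = 0.0537) or without that library (1.91, adjusted p = 0.0681), but it was called on all libraries by DESeq2 (4.08, adjusted p = 1.06e-05) and edgeR (4.06, adjusted p = 0.0266), and by limma without high CHIR replicate 2.

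Hs3st6 stood highest at the middle dose. It ranged from 99.4 to 118 normalized counts in low CHIR, from 4.39 to 11.2 with no CHIR and from 16.8 to 32.1 in high CHIR. Both falls from low CHIR passed the test, to no CHIR with a log2 change of -3.65 ± 0.42 (adjusted p = 0.00281) and to high CHIR with -2.10 ± 0.42 (adjusted p = 0.00973; -1.83 without the third high library, adjusted p = 0.0202).

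No against low CHIR called 4 of the 32 members, Ext1 and Sdc4 higher and Hs3st6 and Gpc5 lower, where 4.97% of all genes passed, 2.37% higher and 2.6% lower. Gpc5 was at 36.5, 30.7 and 23.5 normalized counts with no CHIR and at 94.6, 90.2 and 69.5 in low CHIR (-1.47 ± 0.29, adjusted p = 0.0227), a call that held without no CHIR replicate 1 but was lost without any other of the 6 libraries (-1.60 to -1.30). High against no CHIR called 17 of the 32 members, 8 higher and 9 lower, where 23.4% of all genes passed, 11.4% higher and 12% lower. It shares its libraries with the comparisons above. With no CHIR, Gpc3 was at 23135, 16544 and 19860 normalized counts, Gpc6 at 3497, 2739 and 3397, Gpc4 at 964, 509 and 872, Hs6st2 at 3565, 3230 and 3609, Hs6st1 at 305, 224 and 225, and Sulf1 at 590, 378 and 418. For each of these 6 genes, all called in this comparison, no library overlapped with high CHIR. How many of all genes separate in this way was not counted. Sulf2 gave a log2 change of -3.53, Sulf1 of -4.07, Sdc4 of -2.63, Hs6st2 of -1.51, Gpc3 of -1.49 and Gpc6 of -1.24, and Ext1 was called lower too. The Sulf1 call was lost with DESeq2 and edgeR here as well.

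Members called lower in high against no CHIR also took in Xylt1, one of the 2 enzymes that start the linker, at 286, 332 and 369 against 137, 251 and 55.1 normalized counts (-1.39 ± 0.46, adjusted p = 0.0498), and Sdc3, a syndecan best known from nerve, at 341, 184 and 244 against 115, 112 and 167 (-0.94 ± 0.30, adjusted p = 0.0431). Called higher were Gpc4 (1.64), Hs3st6 (1.54) and Hs6st1 (1.28), and with them Hpse, from 19.1, 19 and 13.4 to 54.9, 57.2 and 192 (2.25 ± 0.47, adjusted p = 0.007). Gpc5 rose by 1.14, Gpc1 from 297, 189 and 287 to 590, 490 and 312 (0.83 ± 0.26, adjusted p = 0.0393) and Sdc1 from 1654, 1006 and 1292 to 2109, 2130 and 2705 (0.83 ± 0.19, adjusted p = 0.00999). Glce, the epimerase that turns glucuronic into iduronic acid, rose from 460, 198 and 410 to 583, 575 and 1117 (1.11 ± 0.36, adjusted p = 0.0476). Of these, the calls of Xylt1 (-1.49 to -0.82) and Glce (0.73 to 1.27) were lost without any of 5 of the 6 libraries, high CHIR replicate 3 among them, the libraries whose loss kept the call being high CHIR replicate 2 for Xylt1 and no CHIR replicate 1 for Glce. Without high CHIR replicate 1 or 2 the calls of Sdc3 (-0.95 to -0.71), Gpc1 (0.62 to 0.92), Hs6st1 (1.05 to 1.20) and Hs3st6 (1.18 to 1.44) were lost, as they were without no CHIR replicate 3 for the first 3 of these, without no CHIR replicate 2 for Gpc1, Hs6st1 and Hs3st6, and without no CHIR replicate 1 for Sdc3. The Gpc5 call was lost without high CHIR replicate 1 or no CHIR replicate 3 (0.97 and 1.07). Without the third high CHIR library 18 members were called, where 25% of all genes passed. Hs3st3b1 (3.76, adjusted p = 2.65e-05), Hs3st3a1 (3.66, adjusted p = 7.23e-04) and Extl2 (-0.85, adjusted p = 0.00667) then passed and Xylt1 and Glce did not. Sulf1 was at -5.59 then, Sulf2 at -2.96, Sdc4 at -2.36, Ext1 at -2.15, Gpc3 at -1.29, Hs6st2 at -1.21, Sdc3 at -1.12 and Gpc6 at -1.07. Of the members called higher, Hs3st6 was at 1.82, Hs6st1 at 1.68, Hpse at 1.67, Gpc4 at 1.51, Gpc1 and Gpc5 at 1.09 each and Sdc1 at 0.72.

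Markers of the cells moved along with these doses. The summed level of 8 NPC markers was 30230 to 34910 normalized counts with no CHIR, 15870 to 22000 in low CHIR and 3516 to 7225 in high CHIR, with no overlap, and that of 6 genes of induced nephrons was 1428 to 2950, 2979 to 5776 and 24390 to 33700. Much of the step in the NPC sum from no to low CHIR lay in Cited1, with means of 15473 and 2777. Six2 had means of 3254 and 2922 at these doses. Of 7 stromal markers, all listed, the sum was 8336 to 35540 with no CHIR, 10810 to 17710 in low and 3215 to 11080 in high CHIR, with Foxd1, which defines cortical stroma, at 4.673 to 45.99 over all wild-type libraries. The ureteric list, 6 of its 7 genes listed, was at 555.2 to 1177 with no CHIR, 447.9 to 841 in low and 1027 to 6021 in high CHIR, mostly Gata3 with a highest value of 4283, while its defining gene Ret reached at most 7.318. Blood markers, 5 of 6 listed, summed to 948.5 to 1300 with no CHIR, 735.9 to 869.5 in low and 243.1 to 338.4 in high CHIR, and the 6 endothelial markers to 213.7 to 366.8, 51.5 to 175.6 and 79.45 to 795.5. The part of these markers in the results was not tested.

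**Figure D3:**
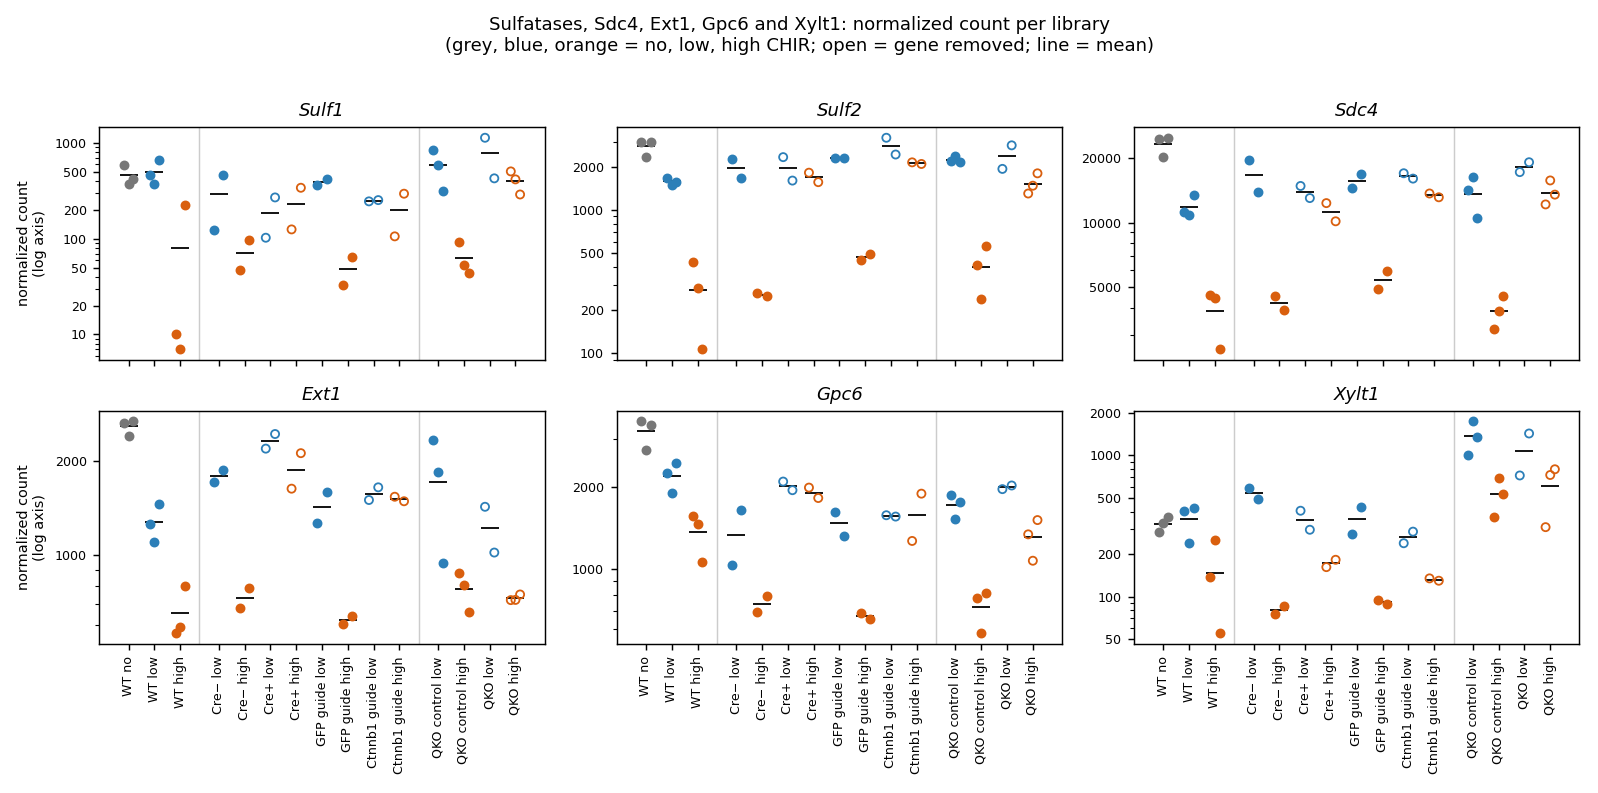
Points give the normalized count (log axis) of 6 members in each of the 36 libraries, by group on the x axis, with a line at the group mean; grey, blue and orange stand for no, low and high CHIR and open points for cells with β-catenin or the 4 Tcf/Lef genes removed. In Sulf2 the filled orange points, between 107 and 557, lie below all others, and the open orange points lie between 1302 and 2148.

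The response to CHIR was then read in the control cells of the knockout experiments, each on its own table scale. In Cre-negative cells 7 of 32 members were called, all lower in high CHIR, where 8.05% of all genes passed and 5.24% were lower. With GFP guides and the 24 h period 6 of 32 were called, all lower, against 7.51% of all genes and 4.53% lower. With GFP guides and the 48 h period 11 of 31 were called, 3 higher and 8 lower, against 14.9% of all genes, 6.98% higher and 7.96% lower. Ext1, Sulf2, Gpc6, Sdc4 and Xylt1 were called lower in all 3 of these control settings.

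Sulf2 went from 2264 and 1658 to 263 and 249 in Cre-negative cells (log2 change -2.92 ± 0.21, adjusted p = 1.39e-06), and from 2303 and 2298 to 446 and 492 with 24 h GFP guides (-2.29 ± 0.21, adjusted p = 1.34e-05). In the 48 h controls it went from 2190, 2386 and 2156 to 411, 239 and 557 (-2.56 ± 0.26, adjusted p = 5.89e-05). The high CHIR libraries lay below all low CHIR libraries in each setting. Sdc4 fell from 19527 and 13866 to 4538 and 3906 (-1.97 ± 0.20, adjusted p = 2.61e-05), from 14566 and 16834 to 4873 and 5910 (-1.54 ± 0.20, adjusted p = 2.46e-04), and from 14180, 16258 and 10522 to 3181, 3859 and 4524 (-1.82 ± 0.18, adjusted p = 4.12e-05). Again no libraries overlapped between the doses.

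Ext1 fell from 1715 and 1864 to 677 and 788 in Cre-negative cells (-1.29 ± 0.17, adjusted p = 3.08e-04) and from 1267 and 1592 to 604 and 640 with 24 h GFP guides (-1.19 ± 0.17, adjusted p = 6.72e-04). In the 48 h controls it went from 2334, 1837 and 947 to 878, 804 and 657 (-1.04 ± 0.27, adjusted p = 0.0224), a call lost without low CHIR replicate 1 or 2 or high CHIR replicate 2 or 3 (-1.07 to -0.77). Gpc6 fell from 1034 and 1644 to 694 and 794 (-0.81 ± 0.23, adjusted p = 0.0428), from 1628 and 1320 to 690 and 654 (-1.13 ± 0.23, adjusted p = 0.00748), and from 1874, 1531 and 1761 to 780, 581 and 817 (-1.26 ± 0.17, adjusted p = 3.44e-04). The 48 h call held without any 1 library, the Cre-negative call was lost without either high CHIR library or low CHIR replicate 2 (-0.91 to -0.48), and the 24 h GFP call without low CHIR replicate 1 or high CHIR replicate 2 (-1.09 and -0.97).

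Between low and high CHIR in wild-type cells Xylt1 was not called by limma (-1.46), though DESeq2 called it (-1.26, adjusted p = 0.0344). The gene fell in all 3 control settings. It went from 586 and 494 to 74.6 and 86.1 in Cre-negative cells (-2.73 ± 0.26, adjusted p = 1.63e-05), from 275 and 432 to 95.2 and 89 with 24 h GFP guides (-1.89 ± 0.26, adjusted p = 4.47e-04), and from 1003, 1744 and 1361 to 368, 688 and 533 in the 48 h controls (-1.38 ± 0.38, adjusted p = 0.0291). The 48 h call was lost without low CHIR replicate 2 or high CHIR replicate 1 or 3 (-1.41 to -1.14). The other linker enzymes, Xylt2, B4galt7 and B3gat3, were called by limma in none of the comparisons, and DESeq2 called Xylt2 in the 48 h controls (-0.93, adjusted p = 0.0442). Sdc3 fell from 393 and 231 to 54.3 and 92.3 in Cre-negative cells (-2.07 ± 0.41, adjusted p = 0.00603; not called without replicate 1 of either dose, -1.70 and -1.69) and from 430, 422 and 302 to 120, 107 and 92.5 in the 48 h controls (-1.83 ± 0.25, adjusted p = 3.81e-04). Sulf1 fell from 363 and 425 to 33 and 64.1 with 24 h GFP guides (-3.07 ± 0.69, adjusted p = 0.0158; not called without high CHIR replicate 1 or either low CHIR library, -3.18 to -2.60) and from 854, 594 and 316 to 92.3, 53.6 and 43.6 in the 48 h controls (-3.16 ± 0.43, adjusted p = 4.37e-04). In Cre-negative cells it was at 124 and 467, then 46.9 and 96.5, and did not pass with limma (-1.83), though DESeq2 called it (-2.04, adjusted p = 0.0192).

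Sulfotransferase genes gave the remaining calls in controls. In the 48 h controls Hs3st1 ranged from 3.46 to 15.9 normalized counts in low CHIR and from 57.4 to 138 in high CHIR (3.56 ± 0.55, adjusted p = 0.00109). Hs3st3b1 was at 470, 659 and 1172 in low and at 1230, 4208 and 1824 in high CHIR there (1.57 ± 0.48, adjusted p = 0.046; not called without low CHIR replicate 1 or 2 or high CHIR replicate 2 or 3, 1.07 to 1.67). In Cre-negative cells the same gene went down, from 968 and 1025 to 404 and 440 (-1.24 ± 0.21, adjusted p = 0.00213). Hs6st1 rose in the 48 h controls from 274, 291 and 163 to 469, 712 and 409 (1.13 ± 0.32, adjusted p = 0.0322) and Hs6st2 fell from 1907, 2459 and 2367 to 1306, 1761 and 1593 (-0.53 ± 0.14, adjusted p = 0.0223). The Hs6st1 call was lost without 4 of the 6 libraries (high CHIR replicates 1 and 2 and low CHIR replicates 1 and 3, 0.86 to 1.24) and the Hs6st2 call without 3 (high CHIR replicate 1 and low CHIR replicates 2 and 3, -0.49 to -0.41).

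**Figure D4:**
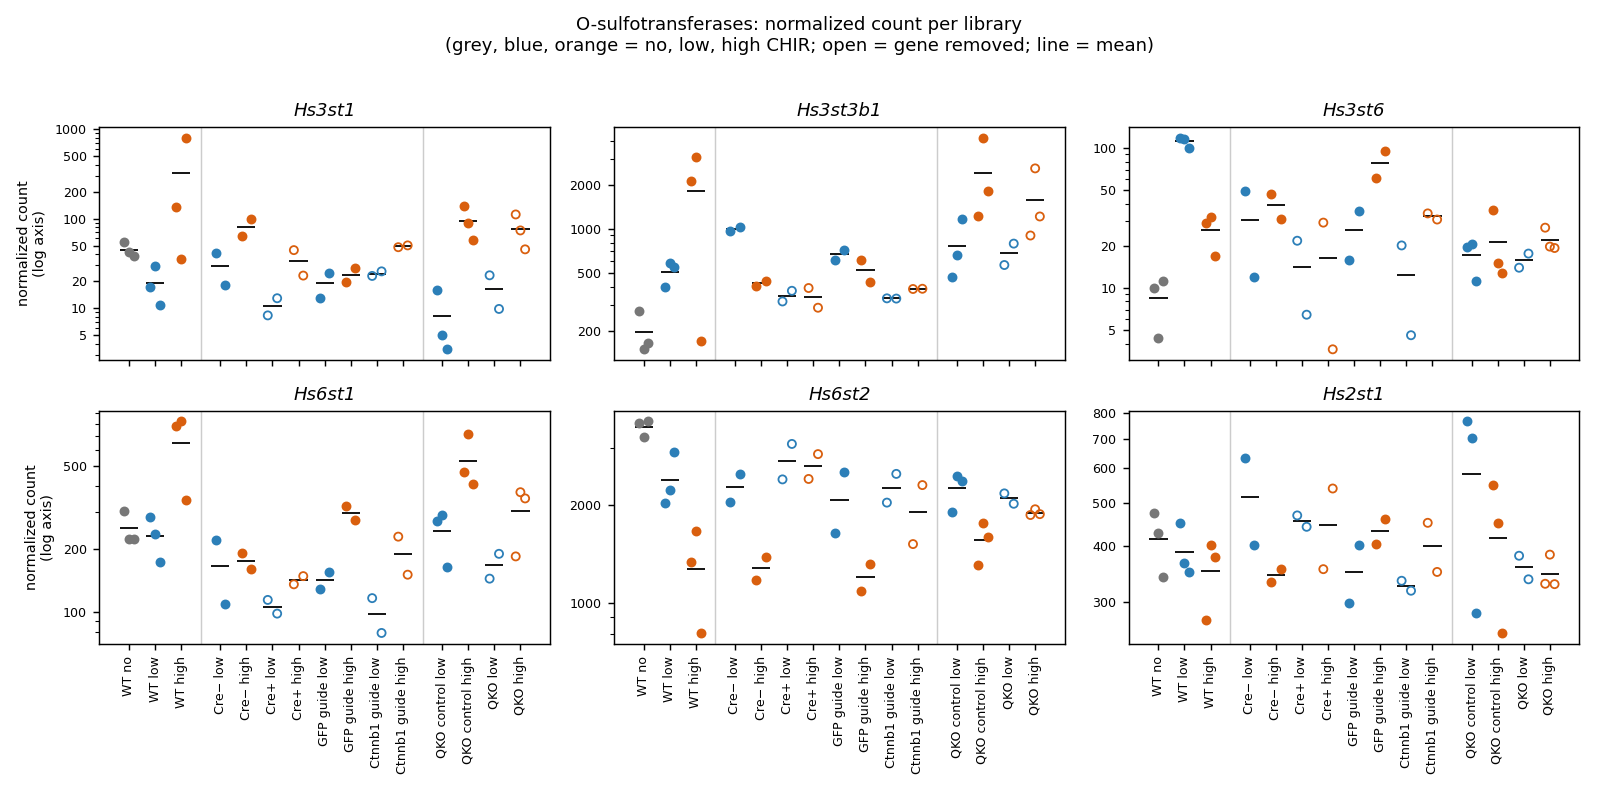
Points give the normalized count (log axis) of 6 O-sulfotransferase genes in each library by group, with a line at the group mean; colors and open points are as in the plot of the sulfatases. Hs3st6 in wild-type low CHIR (99.4 to 118) stands above no CHIR, and Hs3st3b1 is lower in low CHIR with either β-catenin removal (318 to 376) than in the controls (616 to 1025).

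The changes of Gpc3 and Gpc4 in wild-type cells were not called by the main limma test in the controls. DESeq2 called both in the 48 h controls, Gpc3 with -0.79 (adjusted p = 0.023) and Gpc4 with 0.60 (adjusted p = 0.0186). Gpc3 was at 14248 and 17681 in low and 13846 and 14190 in high CHIR in Cre-negative cells, and at 26608 and 21672, then 27602 and 21969, with 24 h GFP guides. Gpc4 was at 304 and 400, then 329 and 418, in the former and at 349 and 527, then 290 and 258, in the latter. In the 48 h controls Gpc3 was at 13385, 18472 and 22276 in low and 6785, 9396 and 15082 in high CHIR (-0.84), and Gpc4 at 388, 396 and 466, then 482, 808 and 595 (0.56). With the replicate number as a block both passed there (adjusted p = 0.00124 for Gpc3 and 0.0217 for Gpc4), as did Hpse (0.94, adjusted p = 0.0249), Hs3st3a1 (1.32, adjusted p = 0.0319) and Extl2 (-0.55, adjusted p = 0.0349), for 16 members in all, where 20.9% of all genes passed with the block. The difference between wild-type and control cells was not tested, since each table was normalized on its own.

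**Figure D5:**
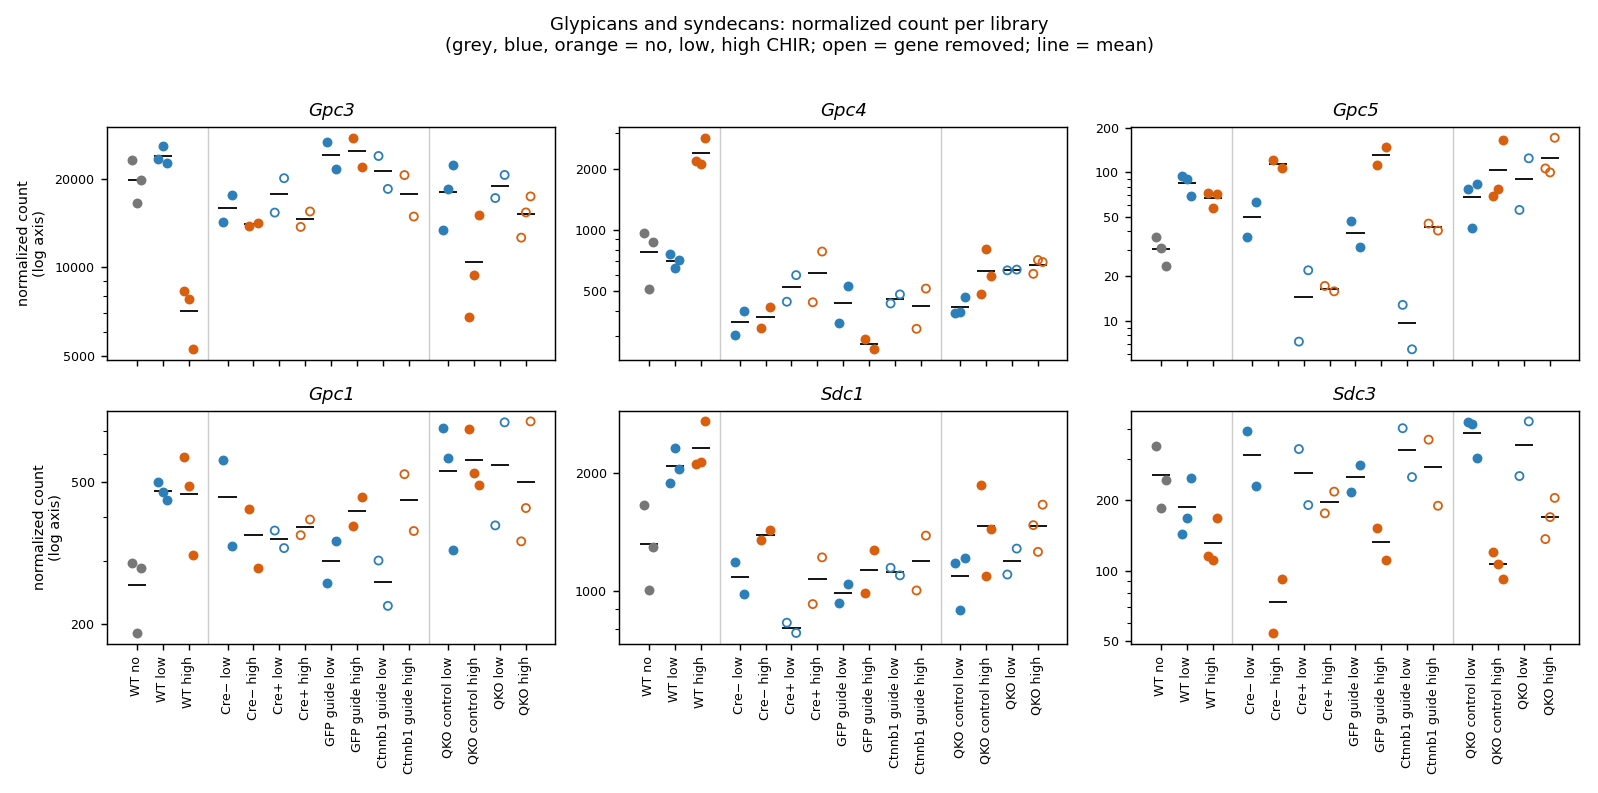
Points give the normalized count (log axis) of 4 glypicans and 2 syndecans in each library by group, with a line at the group mean; colors and open points are as in the plot of the sulfatases. In wild-type cells Gpc3 is lower and Gpc4 higher in high CHIR than at either other dose, while no and low CHIR overlap for both. Gpc5 lies between 6.43 and 45.1 with β-catenin removed against 31.4 to 147 in its controls.

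Removal of β-catenin changed few members in low CHIR and a group of them in high CHIR. In low CHIR, Cre called 1 of 32 members, where 0.328% of all genes passed and 0.149% were lower, and Ctnnb1 guides called none of 32 with limma or edgeR and 1 with DESeq2, where 0.0536% passed. At an unadjusted p under 0.05 the numbers of members were 8 and 4. The called member was Hs3st3b1, at 968 and 1025 normalized counts in Cre-negative and 318 and 376 in Cre-positive cells (-1.52 ± 0.21, adjusted p = 0.00533). The call was lost without replicate 1 of either group (-1.57 and -1.40, adjusted p of 0.0542 and 0.0781). With guides it was at 616 and 719 against 334 and 332, also without overlap (limma, adjusted p = 0.345). The member that DESeq2 called with guides was this same Hs3st3b1 (-1.01, adjusted p = 0.0104). In high CHIR it was at 404 and 440 in Cre-negative and 393 and 288 in Cre-positive cells.

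In high CHIR, Cre called 8 of 32 members, 7 higher and 1 lower, where 8.65% of all genes passed, 5.9% higher and 2.75% lower. Ctnnb1 guides called 4 of 32, all higher, where 5.09% of all genes passed and 3.44% were higher. The median log2 change of the members was 0.27 and 0.30, against -0.02 and 0.00 over all genes. Ext1, Sulf2, Gpc6 and Sdc4 were called higher with both ways of removing β-catenin. With the replicate number as a block, guides also called Sulf1, Hs6st2, Extl2, Extl3 and Gpc5, where 12.7% of all genes passed. These comparisons and the responses to CHIR in controls share the high CHIR control libraries, so a gene that is low in those libraries moves in both.

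Sulf2 was at 263 and 249 normalized counts in Cre-negative and at 1819 and 1563 in Cre-positive cells (log2 change 2.71 ± 0.21, adjusted p = 2.89e-06). With guides it was at 446 and 492 against 2148 and 2093 (2.18 ± 0.21, adjusted p = 3.97e-05). Sdc4 was at 4538 and 3906 against 12324 and 10135 (1.41 ± 0.20, adjusted p = 4.52e-04), and at 4873 and 5910 against 13667 and 13120 (1.32 ± 0.20, adjusted p = 0.00146). Both genes were thus at several times the level of their controls, with no overlap.

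Ext1 was at 677 and 788 against 1630 and 2115 with Cre (1.34 ± 0.17, adjusted p = 2.30e-04), and at 604 and 640 against 1536 and 1486 with guides (1.28 ± 0.17, adjusted p = 6.72e-04). Gpc6 was at 694 and 794 against 1995 and 1826 with Cre (1.36 ± 0.23, adjusted p = 0.00176), and at 690 and 654 against 1269 and 1895 with guides (1.21 ± 0.23, adjusted p = 0.0074). The last call was lost without replicate 2 of either group (0.92 and 1.17). Sulf1 was higher without overlap in both settings, at 46.9 and 96.5 against 125 and 341 and at 33 and 64.1 against 106 and 296. It passed in neither with limma, while DESeq2 called it with guides (2.05, adjusted p = 0.0249).

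Further members were called with Cre alone. Xylt1 was at 74.6 and 86.1 against 162 and 182 (1.09 ± 0.26, adjusted p = 0.0176), Hs6st2 at 1175 and 1378 against 2401 and 2863 (1.04 ± 0.25, adjusted p = 0.0177) and Sdc3 at 54.3 and 92.3 against 176 and 217 (1.45 ± 0.41, adjusted p = 0.044). These did not hold without 1 library, Xylt1 for any of the 4 (0.99 to 1.19), Hs6st2 for Cre-negative replicate 1 or Cre-positive replicate 2 (0.92 and 0.93), and Sdc3 for all but Cre-negative replicate 2 (1.07 to 1.60). Gpc5 was the member called lower, at 121 and 107 against 17.2 and 15.8 (-2.71 ± 0.51, adjusted p = 0.00411). With guides Gpc5 was at 112 and 147 against 45.1 and 40.5, without overlap (limma, -1.57 ± 0.51, adjusted p = 0.0993), and DESeq2 called it (-1.60, adjusted p = 0.0125). Whether Cre and guides differ in these genes was not tested.

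After removal of β-catenin, high CHIR called no member against low CHIR with limma or edgeR, in Cre-positive cells (2 at an unadjusted p under 0.05, 1 called by DESeq2) or with Ctnnb1 guides (5 and 2). Over all genes 0.292% and 0.763% passed. With the replicate number as a block, limma called 1 member with Cre and 2 with guides, where 0.763% and 2.66% of all genes passed. Sulf2 was at 2336 and 1603 in low and 1819 and 1563 in high CHIR in Cre-positive cells (-0.20), and at 3189 and 2436, then 2148 and 2093, with guides (-0.39). Sdc4 changed by -0.31 and -0.30 there and Ext1 by -0.31 and -0.06. Xylt1 had log2 changes of -1.01 and -0.99, at 406 and 297, then 162 and 182, with Cre and at 239 and 288, then 134 and 129, with guides.

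A test of the difference between the responses to CHIR with and without β-catenin called 3 members with Cre, where 0.995% of all genes passed and 0.745% were positive, and 1 with guides, where 0.518% passed and 0.471% were positive. With Cre these were Sulf2 (difference of log2 changes 2.72 ± 0.29, adjusted p = 3.43e-04), Sdc4 (1.65 ± 0.28, adjusted p = 0.00952) and Xylt1 (1.72 ± 0.37, adjusted p = 0.0424), and with guides Sulf2 (1.90 ± 0.29, adjusted p = 0.0085). The Xylt1 call was lost without any 1 of the 8 libraries (1.49 to 1.94), that of Sdc4 without Cre-positive low CHIR replicate 2 (1.56, adjusted p = 0.0505), and that of Sulf2 with guides without replicate 2 of the Ctnnb1 guide in low or high CHIR (1.71 and 1.92, adjusted p of 0.0559 and 0.0586). The Sulf2 call with Cre held without any 1 library. With guides Sdc4 differed by 1.24 ± 0.28 (adjusted p = 0.0822) and Ext1 by 1.13 ± 0.24 (adjusted p = 0.0665), neither called by limma. DESeq2 called both, Sdc4 with 1.24 (adjusted p = 0.00234) and Ext1 with 1.14 (adjusted p = 0.00442). With Cre it also called Ext1 (0.97, adjusted p = 0.0215) and Hs3st3b1 (1.20, adjusted p = 0.0151). With the replicate number as a block more members were called with Cre and with guides, as counted in the closing part. Of all genes 3.13% and 1.4% then passed.

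Cell markers moved with the removal of β-catenin too. In high CHIR the summed NPC markers were at 8962 and 11050 normalized counts in Cre-negative and 15690 and 17090 in Cre-positive cells, and those of induced nephrons at 18750 and 20870 against 3113 and 3482. The 7 stromal markers summed to 3601 and 5040 against 6765 and 12540 with Cre, and to 3756 and 13060 against 11410 and 18310 with guides, with Foxd1 at 2.872 to 32.19 over the table. The 6 endothelial markers summed to 59.14 and 63.52 against 562.2 and 925.9 with Cre, of which Emcn made up most (up to 1174), while Cdh5 and Tie1 stayed at or under 6.437 and were at 0 in 4 and 7 libraries. The part of these cells in the results was not tested.

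Loss of the 4 Tcf/Lef genes raised both sulfatases, Gpc6 and Sdc4 in high CHIR. In low CHIR QKO called none of 31 members with limma, edgeR or DESeq2, and 2 were at an unadjusted p under 0.05, where 0.0063% of all genes passed. In high CHIR 4 of 31 were called, all higher, where 2.54% of all genes passed and 2.05% were higher. These were Sulf1, Sulf2, Gpc6 and Sdc4. The median log2 change of the members was 0.05 and that of all genes 0.00.

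Sulf1 was at 92.3, 53.6 and 43.6 normalized counts in controls and 506, 418 and 290 in QKO cells (2.70 ± 0.43, adjusted p = 0.00659). Sulf2 was at 411, 239 and 557 against 1302, 1476 and 1801 (1.99 ± 0.26, adjusted p = 0.00224). Sdc4 was at 3181, 3859 and 4524 against 12152, 15724 and 13502 (1.85 ± 0.18, adjusted p = 4.76e-04). In each of these 3 genes every QKO library lay above every control library, and the call held without any 1 library. Gpc6 was at 780, 581 and 817 against 1342, 1073 and 1515 (0.85 ± 0.17, adjusted p = 0.0198), a call lost without control replicate 2 or QKO replicate 1 or 3 (0.70 to 0.83).

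Ext1, called higher with both removals of β-catenin, was at 878, 804 and 657 in controls and 719, 720 and 749 in QKO cells (-0.09 ± 0.27, adjusted p = 0.92). The β-catenin and Tcf/Lef experiments differ in knockout period and table, and the difference between them was not tested. Xylt1 stood at 368, 688 and 533 against 310, 727 and 798 (0.14). With the replicate number as a block, Gpc3 (0.60, adjusted p = 0.0234) and Sdc2 (0.63, adjusted p = 0.0336) passed as well, where 7.44% of all genes passed.

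In QKO cells high CHIR called no member against low CHIR with limma or edgeR (6 at an unadjusted p under 0.05, 3 called by DESeq2), where 2.54% of all genes passed. With the replicate block, under which 6% of all genes passed, 4 were called, Sulf1 (-0.83, adjusted p = 0.0342), Xylt1 (-1.04, adjusted p = 0.00902) and Gpc6 (-0.50, adjusted p = 0.0354) lower and Hs3st1 (2.23, adjusted p = 0.00269) higher. The difference between the responses to CHIR in QKO and control cells called no member with limma or edgeR (5 at an unadjusted p under 0.05, 3 called by DESeq2), where 0.126% of all genes passed. With the block, under which 0.857% of all genes passed, it called 3 members, Sulf1 (2.33 ± 0.27, adjusted p = 0.00376), Sdc4 (1.33 ± 0.23, adjusted p = 0.0252) and Sulf2 (2.03 ± 0.32, adjusted p = 0.0195). In high CHIR the stromal sum ran from 249.9 to 3216 in controls and from 590.1 to 8009 in QKO cells, and the induced nephron sum from 21540 to 37880 and from 10470 to 20050. One control library in high CHIR had 2831 normalized counts of blood markers, mainly Lyz2 at 2474, while the highest sum among the QKO and low CHIR libraries of that table was 181.2. The part of these markers in the results was not tested.

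Sulf2, Sdc4 and Gpc6 were called in all 4 high against low CHIR comparisons of intact cells and in all 3 removals in high CHIR. How many of all genes were called in all of these was not counted. Each removal shares its high CHIR control libraries with a response to CHIR, and several Gpc6 calls were lost without 1 library. RefSeq promoter windows (GRCm38.p6, 250 bases before to 50 after a start, 5′ to 3′) were given for Sulf2 and Sdc4 but not for Gpc6. The promoters of Sulf2 and Sdc4 are shown because both genes were called in each of these comparisons. Capitals mark the GC box GGGCGG, or CCGCCC where it lies on the other strand. The windows are chr2:166155634-166155933 for Sulf2, 1 of 2 listed starts, and chr2:164443139-164443438 for Sdc4, both on the minus strand.
Sulf2: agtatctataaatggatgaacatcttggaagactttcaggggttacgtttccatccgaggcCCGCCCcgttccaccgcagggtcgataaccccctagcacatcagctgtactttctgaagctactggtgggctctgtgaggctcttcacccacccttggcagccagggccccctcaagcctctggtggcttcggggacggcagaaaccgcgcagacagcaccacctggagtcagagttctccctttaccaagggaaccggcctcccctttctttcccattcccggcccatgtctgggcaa
Sdc4: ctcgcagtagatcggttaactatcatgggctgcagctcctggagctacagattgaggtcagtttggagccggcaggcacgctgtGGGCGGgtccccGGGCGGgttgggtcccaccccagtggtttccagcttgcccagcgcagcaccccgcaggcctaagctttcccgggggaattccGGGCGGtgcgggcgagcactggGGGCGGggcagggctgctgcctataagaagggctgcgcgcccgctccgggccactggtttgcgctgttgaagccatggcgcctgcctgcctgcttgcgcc
The Sulf2 window holds 1 GC box and the Sdc4 window 4, at a GC content of 58% and 67.7%. A GC box on either strand was in 35.7% of all 32851 windows and in 20 of 31 windows of the 27 members that matched. The letters CTTTGA, a core of Tcf/Lef motifs, or TCAAAG on the other strand were in neither window, in 16% of all windows and in 2 of the 31 member windows, those of B4galt7 and Extl1. The 2 motifs share no overlap, and a missing match says only that the letters are not in these windows. Xylt1, Ext1, Extl3, Ndst1, Ndst4, Hs3st6, Sulf1, Gpc1, Gpc6 and Sdc2 had no window.

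The N-sulfating enzymes were not called. Ndst1 and Ndst2, which swap acetyl for sulfate along the chain, were called in none of the comparisons, with levels of 267 to 932 and 124 to 397 normalized counts over all libraries. Ndst1 overlaps Rps14 on the other strand. Hs2st1, the 2-O-sulfotransferase, lay between 255 and 766 and was called in none. Ext2, Extl2 and Extl3 among the chain-building enzymes, Hs3st3a1, and Gpc2 and Sdc2 among the cores were likewise not called by limma without the block on all libraries, and Hs3st5 was below the filter in each table. Gpc2 was at 5.22 to 41.4 and Sdc2 at 573 to 3324 normalized counts. Extl2 was called in wild-type high against low CHIR without the third high CHIR library (-0.80, adjusted p = 0.0157). Extl1, below the filter in 2 tables, ran from 14.5 to 349 between the 2 Cre-negative libraries in high CHIR, more than most group differences.

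Genes around the pathway were read from 3 further lists. Of 16 genes for other core proteins, linker steps and sulfate donors, 14 tested in wild-type cells, 2 were called higher and 1 lower in high against low CHIR. Col18a1, a basement membrane collagen that carries heparan sulfate, rose from 1097, 355 and 432 to 4277, 3102 and 6293 (2.98), Slc35b3, which brings the sulfate donor into the Golgi, from 374, 475 and 443 to 1694, 1707 and 574 (1.46, and 1.99 without the third library), and Tgfbr3, a receptor with glycan chains, fell from 105, 110 and 113 to 49.3, 33.5 and 37.4 (-1.44). Of 15 tested genes of the chondroitin and dermatan branch, which starts on the same linker, 2 were called higher and 2 lower, against 5.33% and 5.05% of all genes. Dse, the dermatan epimerase, fell from 1070, 1238 and 1417 to 348, 197 and 299 (-2.17), Ust by 1.21 on the log2 scale, and the chondroitin sulfotransferases Chst11 and Chst15 rose (1.42 and 1.40). Without the third high CHIR library these calls remained and Papss2, which makes the sulfate donor, was called as well (3.34, adjusted p = 4.41e-04). Of 8 lysosomal enzymes that degrade heparan sulfate, Sgsh, a sulfamidase, was called lower in high CHIR in all 3 control settings (-0.94, -0.97 and -0.83) and Naglu in the 48 h controls (-1.04). Of all genes 5.24% were lower in Cre-negative cells, 4.53% in the 24 h and 7.96% in the 48 h controls. None of the 8 was called in wild-type cells or on removal of β-catenin or the Tcf/Lef genes.

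Dse was also called higher in high CHIR with both removals of β-catenin, at 511 and 400 against 1884 and 1559 with Cre (1.92) and at 707 and 610 against 1669 and 1422 with guides (1.23). Hs3st4, a 3-O-sulfotransferase outside the 37, was at 0 and 1.04 normalized counts in Cre-negative and 28.3 and 49.8 in Cre-positive cells in high CHIR (4.76), and at 0 in both control libraries against 6.45 and 12.3 with guides. Fam20b, a kinase that phosphorylates the linker, was called higher with Cre (0.74) and in QKO cells (814, 979 and 874 against 524, 526 and 442, 0.84), and Tgfbr3 in QKO cells (2.22). In high CHIR the first list held 2 higher and 2 lower of 15 tested with Cre (8.65% of all genes passed), 1 and 1 with guides (5.09%), and 2 and 0 of 14 in QKO cells (2.54%). Against the same shares of all genes, the chondroitin list held 2 higher and 1 lower of 15 with Cre, and 2 higher and 0 lower of 15 with guides.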

How the data were processed

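RNA of NPCs was made into cDNA with a SMARTer kit, which does not mark strand, and sequenced in pairs. Per the labels and the study's methods the authors aligned reads with STAR 2.5.1a1 to GRCm38 and GRCh38 combined and counted unique reads per Ensembl gene with featureCounts 1.4.6-p52. The deposited signal in each of 3 tables is a count divided by a library size factor (DESeq2). 8 further tables of the authors' fold changes and p-values were not used, nor were 50 columns of sample values in them. The values came out as whole reads in 100% of cases up to 1000 reads (tolerance 0.01), and each library's depth is the sum of these reads.

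Values were tested as log2(normalized count + 1) with limma 3.58.1 (R 4.3.3, variance trend, all libraries of a table) for genes with a mean of at least 10, with Benjamini-Hochberg adjustment. A gene was called at an adjusted p under 0.05 and a log2 change of at least 0.5. A fold change on this scale understates changes of low genes. Where groups are said not to overlap, the share of all genes that separate in this way was not counted. Alternatives were a pseudocount of 5, no filter, TMM rescaling, only the compared groups, a replicate block, edgeR 4.0.16 (quasi-likelihood) and DESeq2 1.42.0 on the recovered reads, and leaving out each library. The steps were tested on simulated data. Every member is named, and values in every library are given where a comparison called a member with a mean of at least 50. The members and lists were chosen with earlier results of these data known. Symbols and places come from GENCODE vM21 (GRCm38), with 30045 of 30125 identifiers matched.

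Labels number the replicates without saying whether they are separate litters, so p-values measure the spread between these libraries. In the Tcf/Lef table all 15 same-numbered pairs of libraries deviated together from their group means (correlations of 0.214 to 0.637), so the replicate numbers pair the libraries there and blocked values are given beside calls that change.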

Additional observations from a re-analysis of the deposited data

Results flagged for a closer look

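The response to CHIR differed between cells with and without β-catenin for Sulf2 by 2.72 on the log2 scale with Cre and by 1.90 with guides, and for Sdc4 by 1.65 and Xylt1 by 1.72 with Cre, each by a test of the difference. The Xylt1 call was lost without any 1 of the 8 libraries and with no filter (adjusted p = 0.0537). A limma fit of only the compared groups lost Xylt1 (adjusted p = 0.165) and Sdc4 (adjusted p = 0.117). Leaving out certain single libraries also lost Sdc4 and, with guides, Sulf2.

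In other members every high CHIR library lay above every low CHIR library in one set of cells with intact genes and below in another. The share of all genes that do so was not counted, and groups of 2 libraries separate easily. The pattern is therefore not read as particular to these members. These differences were not tested, since most lie between tables normalized on their own, and no cause was weighed. Hs3st3b1 changed by -1.24 in Cre-negative cells and -0.38 with 24 h GFP guides, and by 1.57 in the 48 h controls. Hs3st3a1, its near-identical neighbour, changed by -1.82 in Cre-negative cells and by 1.32 in the 48 h controls. Hs3st6 changed by -2.10 in wild-type cells and by 1.63 with 24 h GFP guides. Gpc4 changed by 1.74 in wild-type cells, -0.65 with 24 h GFP guides and 0.56 in the 48 h controls. Smaller opposite changes were those of B3gat3 (0.27 in wild-type and -0.18 in Cre-negative cells), Ext2 (0.30 with 24 h GFP guides and -0.49 in the 48 h controls) and Hs2st1 (-0.55 in Cre-negative cells and 0.32 with 24 h GFP guides).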

How the results depend on the processing

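Of 76 calls of a member in a comparison, 43 held under every alternative, and in 944 recomputed values 805 stayed called, 139 did not and 0 changed sign. The pseudocount of 5 lost 0 calls, TMM rescaling 1, the replicate block 1, no filter 2, DESeq2 2, edgeR 4, using only the compared groups 18 and leaving out 1 library 111. DESeq2 and edgeR lost Sulf1 in wild-type high against low and high against no CHIR, edgeR also Xylt1 in the latter and Sdc3 with Cre in high CHIR. The cause of these shifts was not tested.

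Using only the groups compared, members called went from 10 to 6 in wild-type high against low CHIR, from 4 to 8 in no against low, from 1 to 0 for Cre in low CHIR, and for the difference of responses from 3 to 1 with Cre and from 1 to 2 with guides. DESeq2 called 1 member for guides in low CHIR, 1, 2 and 3 for CHIR after Cre, guides and QKO, and 5, 3 and 3 for their differences of responses. The replicate block called 2 members for Cre in low CHIR, where 3.06% of all genes passed. For guides in high CHIR it called 9, adding Sulf1, Hs6st2, Extl2, Extl3 and Gpc5, where 12.7% of all genes passed. For CHIR with 24 h GFP guides it called 10, adding Hs6st1, Hs6st2, Extl1 and Gpc5, where 15.3% of all genes passed. For CHIR after Cre, guides and QKO it called 1, 2 and 4 (0.763%, 2.66% and 6% of all genes). For their differences it called 7, 4 and 3 (3.13%, 1.4% and 0.857% of all genes). All same-numbered libraries correlated positively with Cre (0.334 to 0.518) and with guides (0.116 to 0.491). The number may therefore pair these libraries as well, though only 2 numbers exist there. In wild-type cells the correlations were -0.0156 to 0.272, and the number is not taken as a pairing. In wild-type, Cre-negative and 48 h control responses, QKO and Cre in high CHIR, the block kept the member counts within 1.5 times.

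Without 1 library, members called ranged from 6 to 13 in wild-type high against low CHIR, 1 to 4 in no against low and 10 to 18 in high against no. For Cre they ranged from 0 to 1 in low and 5 to 7 in high CHIR, for guides from 0 to 0 and 3 to 4, and for QKO from 0 to 0 and 3 to 4. For CHIR they ranged from 5 to 6 in Cre-negative, 4 to 5 in 24 h and 7 to 12 in 48 h controls, and were 0 after each removal. For the differences they ranged from 1 to 2 with Cre, 0 to 1 with guides and 0 to 2 with QKO. With 2 libraries in a group, a lone remaining library is assumed to vary like the others.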
